A study of Mus musculus with 6 samples.

Results

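The glucocorticoid receptor gene Nr3c1, the hormone-activating enzyme gene Hsd11b1 and 7 genes known to be induced by the receptor were followed between 3T3-L1 preadipocytes and adipocytes. The 9 genes (Nr3c1, Hsd11b1, Fkbp5, Tsc22d3, Zbtb16, Sgk1, Dusp1, Glul and Errfi1) were chosen by symbol, through GENCODE M21, from 54752 genes in the deposited tables, and all 9 were among the 14726 genes with enough counts to be tested. 3T3-L1 is a mouse embryonic fibroblast line that accumulates lipid and takes on a fat cell programme in culture. The series holds RNA sequencing of 3 preadipocyte and 3 adipocyte libraries, all from this 1 line, labelled with strain C57BL/6J, tissue embryo and no treatment. No genotype or transgene was given for either group. The medium entry is shared by both groups and reads BCS, DMI and FBS; DMI is not spelled out. Exposure of either group to a glucocorticoid therefore cannot be read from the labels, and the day of harvest is not stated in them. Separate cultures are not stated for the 3 libraries of a state either, so p-values here measure only the spread between libraries, which may be technical.

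Glucocorticoids cross the cell membrane and bind a receptor held in the cytoplasm by HSP90 and its co-chaperones. The loaded receptor moves to the nucleus, where it binds DNA as a dimer or tethers to other factors, and it raises some genes and lowers others. In fat tissue the hormone is known both to promote the formation of fat cells and to shape their lipid and glucose metabolism, and a synthetic glucocorticoid is a usual component of mixtures that differentiate 3T3-L1 cells.

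Each library held between 22496486 and 26314076 expected counts in all. Adipocyte markers passed the test upward in 7 of 7 genes and preadipocyte markers downward in 6 of 6. Among all tested genes 35.7% were higher in adipocytes and 37.9% lower. Adipoq, Plin1, Cidec and Lep, at 9, 4, 6 and 0 counts over the preadipocyte libraries, passed the count filter through adipocytes alone. These genes had to be higher, so the 7 of 7 is no independent sign of the cell state. Markers of macrophages summed to 5.25 to 6.97 CPM in preadipocyte and 2.08 to 4.20 CPM in adipocyte libraries, with Adgre1 at 0 in all 6. Endothelial markers summed to at most 1.42 CPM and epithelial markers to at most 1.30 CPM in any library. Muscle markers summed to 1.34 to 1.996 CPM in preadipocyte and 61.7 to 77.5 CPM in adipocyte libraries, mostly from the intermediate filament gene Des, while Myod1, Myog and Ckm were at 0 in all 6. The part of these other markers in the results below was not tested.

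The 9 genes did not move as one group. In adipocytes Hsd11b1, Glul, Dusp1, Errfi1 and Zbtb16 rose, Sgk1 and Tsc22d3 fell, and Nr3c1 and Fkbp5 did not pass the test (edgeR quasi-likelihood test, Benjamini-Hochberg adjusted p under 0.05 over all tested genes). The 7 calls among 9 genes stand beside 73.5% of all tested genes called, so a call as such does not set these genes apart. At least 2-fold differences were found for 6 of the 9, against 41.2% of all tested genes. These are bulk libraries, in which fewer cells of a type and less RNA per cell cannot be told apart. The median log2 fold change was 1.57 over the 9 genes and -0.06 over all tested genes. With the replicate number as a block, 5 of the 9 were higher and 4 lower, because Nr3c1 and Fkbp5 were then called lower. In that fit 81.3% of all tested genes were called. Deviations from group means were shared most clearly by the libraries numbered 1 (correlation 0.66). Preadipocyte library 2 correlated more with adipocyte library 3 (0.45) than with adipocyte library 2 (0.30), so the pairing by number is uncertain. CPM values were not overlapping between groups for the same 7 genes, and for 76.5% of all tested genes. Values are in CPM, the read count relative to the TMM-scaled library size, unless stated.

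**Figure D1:**
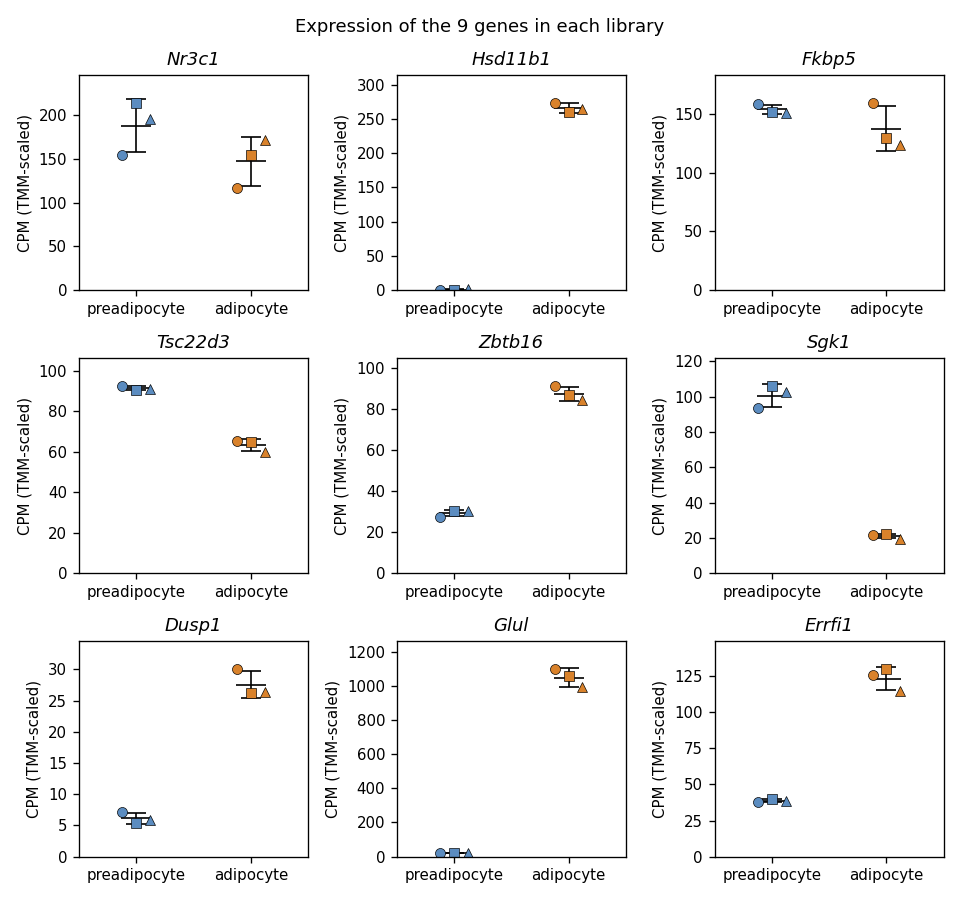
CPM of each gene in the 3 preadipocyte (blue) and 3 adipocyte (orange) libraries, on linear axes from 0; circles, squares and triangles are libraries 1, 2 and 3, and bars show mean ± SD. The groups are apart for 7 genes and overlap for Nr3c1 and Fkbp5.

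Hsd11b1 (ENSMUSG00000016194.14, chromosome 1, 193221634 to 193264075, GRCm38, minus strand) encodes the reductase that regenerates active corticosterone from its inactive keto form inside the cell. It had the largest change of the 9. Its levels were 0.705, 0.395 and 1.02 CPM in preadipocyte libraries 1 to 3, and 273, 260.4 and 264 CPM in the adipocyte libraries. The gene was thus close to silent in every preadipocyte library, with 56 counts in the 3 together, and was well expressed in every adipocyte library. This is a log2 fold change of 8.53 (SE 0.19, edgeR adjusted p = 2.98e-09), or 371-fold.

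Other genes of hormone supply and removal went both ways. Of 12 listed, 4 had enough counts to be tested, and 1 was higher, 1 lower and 2 not called. Over all tested genes 73.5% were called, 35.7% higher and 37.9% lower, and 4 genes are too few to show a direction of the list. H6pd, which supplies the cofactor that lets the Hsd11b1 enzyme work as a reductase, measured 191.7 ± 5.84 and 190.3 ± 15.3 CPM (SD, n = 3) in preadipocytes and adipocytes, a log2 difference of -0.01 (SE 0.081). Scaled by total counts it was -0.34, and limma on log2(TPM + 1) gave -0.49, both past the threshold, and slightly above 0 under 6 alternatives, where it was not called. Srd5a1, a steroid reductase that inactivates several steroid hormones, rose from 1.89 ± 0.50 to 4.72 ± 0.37 CPM (SD, n = 3). Abcb1b, an efflux pump that exports steroids among other compounds, fell from 11.5 ± 1.29 to 0.587 ± 0.146 CPM (SD, n = 3), or 19.3-fold. Star, the cholesterol carrier that feeds steroid synthesis, was at 2.64 ± 0.15 and 3.34 ± 0.39 CPM (SD, n = 3) and did not pass. The inactivating enzyme gene Hsd11b2 had 13 counts in all preadipocyte and 16 in all adipocyte libraries, too few to be tested, and every untested gene of this list stayed at or below 0.399 CPM in each library.

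Nr3c1 (ENSMUSG00000024431.14, chromosome 18, 39410545 to 39519421, minus strand) encodes the receptor itself. Preadipocyte libraries 1 to 3 held 155, 214 and 196 CPM, and adipocyte libraries 1 to 3 held 116, 155 and 171 CPM. The groups overlapped, since preadipocyte library 1 lay at the level of adipocyte library 2 and below adipocyte library 3. In both states library 1 was the lowest. The log2 fold change was -0.35 (SE 0.16, edgeR adjusted p = 0.0774). Comparing libraries of the same number gave log2 ratios of -0.41, -0.47 and -0.19 for numbers 1, 2 and 3, all downward. With the replicate block the difference was -0.36 (SE 0.060, edgeR adjusted p = 0.000144), and without preadipocyte library 1 it was -0.48 (edgeR adjusted p = 0.0227).

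**Figure D2:**
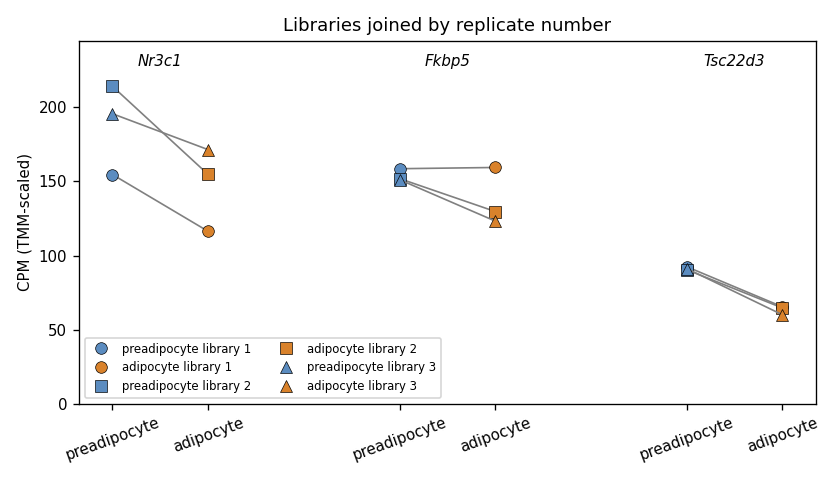
CPM of Nr3c1, Fkbp5 and Tsc22d3, with lines joining the preadipocyte (blue) and adipocyte (orange) library of the same replicate number; circles, squares and triangles are numbers 1, 2 and 3. All 3 lines fall for Nr3c1 and Tsc22d3, while the line of number 1 is level for Fkbp5.

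The 3 genes whose pattern over the 6 libraries was most like that of Nr3c1, among 9326 other genes with a mean of at least 10 CPM, were Gm7292, Tug1 and Nf1. Likeness was the root mean square distance between centred log2(CPM + 1) values, which was 0.034 for Gm7292, 0.037 for the noncoding RNA gene Tug1 and 0.038 for the RAS regulator gene Nf1. Tug1, for example, held 195.5, 259 and 245.5 CPM in preadipocyte and 138, 185 and 215 CPM in adipocyte libraries 1 to 3. Like Nr3c1, these 3 genes are lowest in library 1 of each state. This follows from choosing them by that pattern and is no separate observation.

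Nr3c2, the mineralocorticoid receptor, which also binds glucocorticoids, fell from 19.3 ± 1.49 to 9.89 ± 0.76 CPM (SD, n = 3; log2 fold change -0.97, SE 0.11, edgeR adjusted p = 3.75e-05). On the TPM scale, which corrects for transcript length and so lets genes be compared, Nr3c1 exceeded Nr3c2 9.04-, 11.0- and 10.7-fold in the preadipocyte libraries and 10.5-, 16.1- and 18.6-fold in the adipocyte libraries. The ratios of both states overlapped (exact permutation test over 6 libraries, two-sided p = 0.3, where 0.1 is the smallest possible).

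Fkbp5 (ENSMUSG00000024222.17, chromosome 17, 28399094 to 28517527, minus strand) encodes a co-chaperone that lowers the hormone affinity of the receptor complex and is itself a classical receptor target, which forms a short feedback loop. Levels were 159, 152 and 151 CPM in preadipocyte and 159, 129.7 and 123 CPM in adipocyte libraries 1 to 3. Adipocyte library 1 sat at the preadipocyte level and the other two below it. The log2 fold change was -0.16 (SE 0.10, edgeR adjusted p = 0.18). It was -0.17 with the replicate block (edgeR adjusted p = 0.0213), -0.27 without adipocyte library 1 (edgeR adjusted p = 0.0135) and -0.03 without adipocyte library 3 (edgeR adjusted p = 0.823).

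Fkbp4 encodes the related co-chaperone that competes with the Fkbp5 protein for the receptor complex, and which links the loaded receptor to transport into the nucleus. It rose from 147 ± 12.1 to 194 ± 24.4 CPM (SD, n = 3; log2 fold change 0.40, SE 0.11, edgeR adjusted p = 0.00827). This call turned on the scaling. With total counts the log2 fold change was 0.07 (edgeR adjusted p = 0.529), and in the TPM-based limma fit it was -0.17 (adjusted p = 0.0741), with 144 ± 5.96 TPM in preadipocytes and 128 ± 9.45 TPM in adipocytes (SD, n = 3). The TPM ratio of Fkbp5 to Fkbp4 was 0.635, 0.751 and 0.646 in preadipocyte and 0.539, 0.436 and 0.483 in adipocyte libraries. Every adipocyte ratio lay below every preadipocyte ratio, a log2 difference of -0.48, but 3 libraries against 3 cannot go below p = 0.1, the value obtained (exact permutation test, two-sided).

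The chaperones and co-chaperones of the receptor went both ways, with 4 higher, 3 lower and 4 not called of 11 and a median log2 fold change of -0.02, where 73.5% of all tested genes were called, 35.7% higher and 37.9% lower. Bag1, an HSP70 co-chaperone that can inhibit the receptor, rose from 57.0 ± 2.46 to 251 ± 14.6 CPM (SD, n = 3), and the phosphatase co-chaperone gene Ppp5c rose from 41.7 ± 5.45 to 64.2 ± 8.07 CPM (SD, n = 3). The call of Ppp5c was lost in the TPM-based limma fit, at 0.03 (adjusted p = 0.857). Ppid, a cyclophilin co-chaperone, fell from 65.1 ± 2.44 to 39.1 ± 5.34 CPM, and the HSP40 gene Dnaja1 from 143.7 ± 4.02 to 100.1 ± 8.04 CPM (SD, n = 3). The counts turned on the scaling: total counts gave 2 higher and 6 lower, and the TPM-based limma fit 1 higher and 7 lower.

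Coregulators of the receptor were higher in 4, lower in 6 and not called in 1 of 11, with a median log2 fold change of -0.21, against the same 35.7% higher and 37.9% lower over all tested genes. Nrip1, a corepressor of many nuclear receptors, rose from 21.3 ± 3.45 to 288 ± 40.5 CPM, and the coactivator gene Ncoa1 from 38.4 ± 3.71 to 161 ± 14.3 CPM (SD, n = 3). The coactivator gene Ncoa3 fell from 47.0 ± 1.52 to 15.4 ± 1.30 CPM, and the arginine methyltransferase gene Carm1 from 98.0 ± 7.87 to 58.7 ± 4.76 CPM (SD, n = 3). Only 2 were higher when scaled by upper quartiles or total counts, in the TPM-based limma fit, and without preadipocyte library 1, preadipocyte library 3 or adipocyte library 2. Without preadipocyte library 3 or adipocyte library 2, 3 were lower.

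Among the transcription regulators induced by the receptor, Tsc22d3 and Zbtb16 moved in opposite directions. Tsc22d3 (ENSMUSG00000031431.13, chromosome X, 140539528 to 140600659, minus strand) encodes GILZ, a leucine zipper protein that carries much of the anti-inflammatory action of the hormone and can hold back Pparg. It held 92.5, 90.4 and 91.2 CPM in preadipocyte and 65.4, 64.6 and 60.0 CPM in adipocyte libraries. All adipocyte libraries were lower than all preadipocyte libraries, and the spread within each state was small. The log2 fold change was -0.53 (SE 0.070, edgeR adjusted p = 0.000123).

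The deposited gene length, which RSEM weights by the abundance of each transcript, differed for Tsc22d3 as well. It was 1931, 1922 and 1932 bases in preadipocyte and 1806, 1844 and 1835 bases in adipocyte libraries, without overlap. GENCODE M21 lists 6 Tsc22d3 transcripts of 643 to 2876 bases. Lengths did not overlap for 20.9% of all tested genes. Of the other 8 genes only Errfi1 had lengths that did not overlap, at 2985 ± 25.8 and 3015.5 ± 9.59 bases (SD, n = 3). No test was made of these lengths, and the tables give no value per transcript.

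Zbtb16 (ENSMUSG00000066687.5, chromosome 9, 48654297 to 48836222, minus strand) encodes PLZF, a zinc finger repressor. It rose from 27.6, 30.4 and 30.1 CPM to 91.0, 86.9 and 84.2 CPM. Each adipocyte library was far above each preadipocyte library, at a log2 fold change of 1.57 (SE 0.078, edgeR adjusted p = 1.86e-07), or 2.98-fold. Tsc22d1, Tsc22d2 and Tsc22d4, relatives of Tsc22d3, are part of a list of 10 relatives in which 3 were higher, 3 lower, 1 not called and 3 not tested. Of all tested genes 73.5% were called, 35.7% higher and 37.9% lower. Tsc22d2 fell from 77.0 ± 8.55 to 38.8 ± 4.28 CPM and Tsc22d4 from 94.3 ± 3.83 to 69.4 ± 7.43 CPM (SD, n = 3). Tsc22d1 was called higher, from 124.7 ± 3.85 to 164.0 ± 11.25 CPM, but held 130.7 ± 2.09 and 129.5 ± 7.28 TPM (SD, n = 3).

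Sgk1 (ENSMUSG00000019970.15, chromosome 10, 21882184 to 21999903, plus strand) encodes a kinase of the AKT branch that acts on ion transport and cell survival. It fell from 93.5, 106 and 102 CPM to 21.5, 22.2 and 19.6 CPM. This was the largest fall of the 9, with wide separation of the groups (log2 fold change -2.25, SE 0.088, edgeR adjusted p = 4.52e-08), or 4.76-fold. Its relative Sgk3 rose from 5.75 ± 0.68 to 10.9 ± 1.46 CPM (SD, n = 3), while Sgk2 was too low to be tested. Ndrg1, a substrate of SGK1, fell from 58.2 ± 2.88 to 9.48 ± 2.71 CPM (SD, n = 3). Nedd4l, a ubiquitin ligase gene whose product SGK1 also phosphorylates, was named after its values were seen and rose from 10.8 ± 0.98 to 19.95 ± 1.56 CPM (SD, n = 3; log2 fold change 0.89, edgeR adjusted p = 7.54e-05).

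Sgk1 is shown by sequence because 1 of its start sites carries the complete palindrome known as the binding sequence of the receptor dimer. RefSeq (GRCm38.p6) start sites were matched for 7 of the 9 genes, with 15 windows of 250 bases before the start, 6 of them of Sgk1, so that a match had more chances there than in a gene with 1 window. Both strands were searched for the full motif, which is AGAACA, then any 3 bases, then TGTTCT. They were also searched for its core ACANNNTGT, which every full motif contains, and for the single arm AGAACA, also part of the full motif. The full motif stood in 1 of these 15 windows and in 3 of 32851 windows of that length over all genes, or 0.00913%. The core was found in 3 of the 15 windows, of Sgk1 and Glul, against 5.84% of all windows, and the single arm in 4 of the 15, of Sgk1 and Tsc22d3, against 16.1%. The first Sgk1 window below holds the full motif from 189 to 175 bases before the start, the second, at another Sgk1 start, the core alone, and the Fkbp5 window, for comparison, neither. Capitals mark the full motif or core, and sequences run 5′ to 3′ on the strand of the gene.
Sgk1, chr10:21993640-21993889, plus strand: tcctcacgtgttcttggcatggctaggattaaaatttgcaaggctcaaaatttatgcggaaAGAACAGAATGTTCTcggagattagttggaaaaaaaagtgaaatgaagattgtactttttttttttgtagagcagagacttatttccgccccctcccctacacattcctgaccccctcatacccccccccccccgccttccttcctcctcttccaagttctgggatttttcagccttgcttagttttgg
Sgk1, chr10:21978422-21978671, plus strand: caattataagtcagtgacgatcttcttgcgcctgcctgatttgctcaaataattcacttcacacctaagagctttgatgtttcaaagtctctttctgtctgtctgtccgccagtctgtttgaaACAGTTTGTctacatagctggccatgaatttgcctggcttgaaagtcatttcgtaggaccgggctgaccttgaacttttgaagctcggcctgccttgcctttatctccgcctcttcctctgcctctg
Fkbp5, chr17:28486150-28486399, minus strand: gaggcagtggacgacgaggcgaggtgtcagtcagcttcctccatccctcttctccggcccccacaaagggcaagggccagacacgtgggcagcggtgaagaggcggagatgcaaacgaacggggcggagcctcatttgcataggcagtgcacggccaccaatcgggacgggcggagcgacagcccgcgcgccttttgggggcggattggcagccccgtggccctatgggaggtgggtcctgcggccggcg
The deposited values are per gene, so they do not show which Sgk1 start was in use, and a match of letters is no measurement of binding.

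Dusp1 (ENSMUSG00000024190.6, chromosome 17, 26505590 to 26562128, minus strand) encodes a phosphatase that switches off p38 and JNK kinases. It held 7.16, 5.41 and 5.81 CPM in preadipocyte and 30.0, 26.2 and 26.3 CPM in adipocyte libraries. All 3 adipocyte libraries were clearly above the others (log2 fold change 2.17, SE 0.13, edgeR adjusted p = 5.59e-07), or 4.49-fold. Its relatives split: Dusp4 rose from 3.07 ± 0.49 to 45.0 ± 2.81 CPM, and Dusp5, which acts on ERK, fell from 7.20 ± 0.30 to 1.12 ± 0.42 CPM (SD, n = 3).

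Errfi1 (ENSMUSG00000028967.10, chromosome 4, 150853919 to 150868892, plus strand) encodes MIG6, which binds and inhibits receptors of the EGF family. It rose from 37.8, 39.9 and 38.9 CPM to 126, 130.0 and 115 CPM. The groups were far apart (log2 fold change 1.67, SE 0.077, edgeR adjusted p = 1.27e-07), or 3.18-fold. Among the receptor genes of that family, Erbb2 fell from 75.0 ± 4.65 to 9.29 ± 1.56 CPM, and Egfr, named after its values were seen, from 75.9 ± 5.20 to 18.5 ± 0.89 CPM (SD, n = 3). Erbb3 was too low to be tested, at or below 0.130 CPM in every library.

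Glul (ENSMUSG00000026473.15, chromosome 1, 153899944 to 153909723, plus strand) encodes glutamine synthetase, which makes glutamine from glutamate and ammonia. It went from 19.8, 20.2 and 20.5 CPM to 1099, 1059 and 993 CPM, a log2 fold change of 5.70 (SE 0.090, edgeR adjusted p = 1.23e-09), or 52.1-fold. Each state was tight and the states were far apart. Of the 31-base words in Glul transcripts 20.4% also occur in transcripts of other genes, against at most 2.06% for the other 8 genes. The Glul pseudogene Glns-ps1, which shares most of them, is listed with 0 counts in all 6 libraries. Teddm2, whose exons overlap those of Glul by 116 bases on the opposite strand, held at most 0.316 CPM in preadipocyte and 2.34 CPM in adipocyte libraries.

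Genes around glutamine also moved. Slc1a5, a glutamine transporter, rose from 168 ± 5.11 to 574 ± 46.7 CPM, and Glud1, which converts glutamate to 2-oxoglutarate, from 145 ± 2.95 to 359 ± 18.4 CPM (SD, n = 3). The list of 14 genes on which the 9 act had 5 higher, 5 lower, 3 not called and 1 not tested, and the TPM-based limma fit had 3 higher. With TMM scaling, 35.7% of all tested genes were higher and 37.9% lower.

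**Figure D3:**
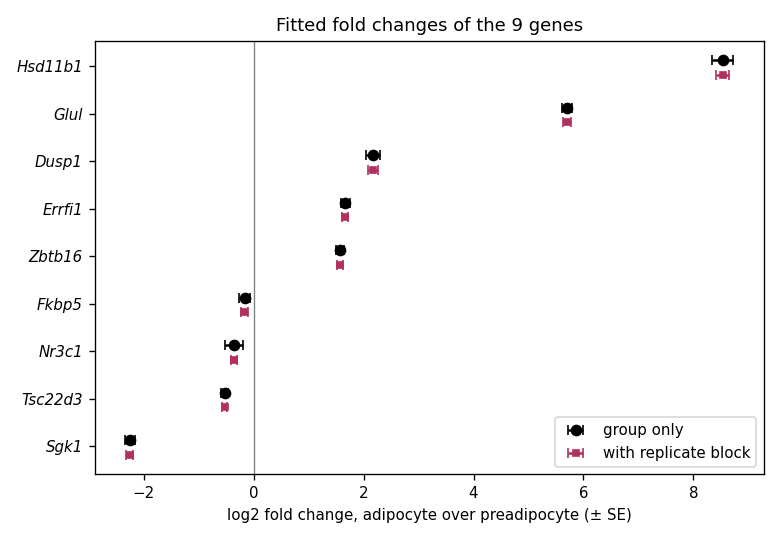
Fitted log2 fold change, adipocyte over preadipocyte, of the 9 genes with SE bars, from the fit on group alone (black circles) and with the replicate number as a block (red squares). Estimates run from -2.25 for Sgk1 to 8.53 for Hsd11b1 and differ little between both fits, while the bar of Nr3c1 shrinks from 0.16 to 0.060.

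Ordered by TPM, preadipocytes held Fkbp5 (97.3 ± 6.31), Tsc22d3 (95.2 ± 2.86), Sgk1 (82.9 ± 8.57) and Nr3c1 (67.7 ± 14.5) at the top (SD, n = 3). Fkbp5 and Tsc22d3 overlapped, as did Sgk1 and Nr3c1. Then came, without overlap between neighbours, Errfi1, Glul, Zbtb16, Dusp1 and Hsd11b1, from 25.3 ± 1.38 down to 1.01 ± 0.50 TPM (SD, n = 3). In adipocytes Glul (522 ± 22.2) and Hsd11b1 (263 ± 6.60) led, followed by Fkbp5 (62.6 ± 10.5) and Errfi1 (55.4 ± 3.00), which overlapped (TPM, SD, n = 3). Sgk1, at 12.1 ± 0.81 TPM (SD, n = 3), was the lowest there. The receptor itself was at 37.9 ± 7.48 TPM in adipocytes (SD, n = 3), below 5 of the other 8 genes.

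**Figure D4:**
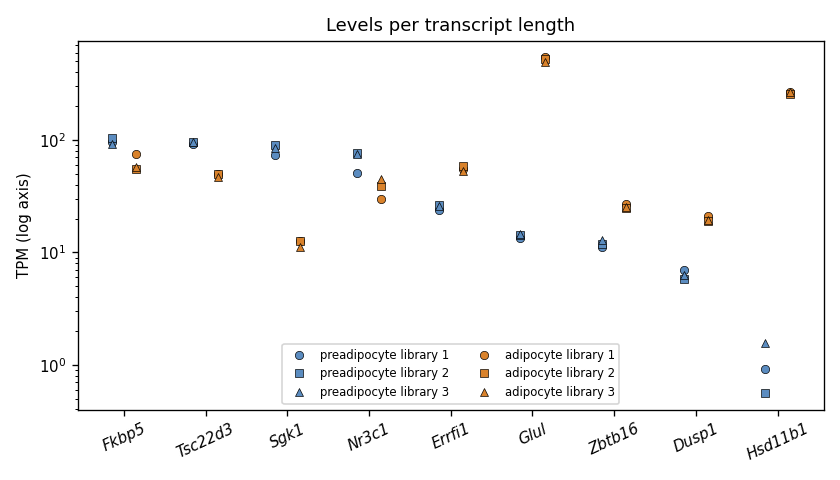
TPM of the 9 genes in preadipocyte (blue) and adipocyte (orange) libraries on a log axis, ordered by the preadipocyte mean; circles, squares and triangles are libraries 1, 2 and 3. Glul and Hsd11b1 pass from the lower end in preadipocytes to the top in adipocytes, and Sgk1 from near the top to the bottom.

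Beyond the 9, 33 further genes known to be induced by glucocorticoids were examined. Of these, 31 were tested, 18 were higher, 8 lower and 5 not called, with a median log2 fold change of 0.87, while 35.7% of all tested genes were higher and 37.9% lower. Genes such as Pck1 and Klf15 passed the count filter through adipocytes alone and so had to be higher, which makes the count over tested genes no sign of a shared direction. Pck1, the key enzyme of glyceroneogenesis, had no count in preadipocytes and 59.1 ± 8.38 CPM (SD, n = 3) in adipocytes, at least 1551-fold higher against a floor of 3 counts over the group. Klf15, a transcription factor of fat and muscle metabolism, had 2 preadipocyte counts and 178 ± 12.6 CPM (SD, n = 3) in adipocytes, a ratio of 6991 (95% Poisson interval 1935 to 57730, counting error only). The transcription factor gene Snai2 fell from 75.2 ± 7.74 to 6.91 ± 0.61 CPM, and the stress gene Gadd45b from 11.0 ± 0.13 to 2.42 ± 0.11 CPM (SD, n = 3). Per1, a clock gene with a well-known receptor site, was named after its values were seen and measured 78.1 ± 5.92 and 71.1 ± 8.29 CPM (SD, n = 3; log2 fold change -0.14, edgeR adjusted p = 0.254). It was called lower with the replicate block, at -0.14 (edgeR adjusted p = 0.0297). Many of these genes are known to answer to other signals as well, and the part of the receptor in their change was not tested.

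Of 16 genes known to be repressed by glucocorticoids, 10 had enough counts to be tested and all 10 fell, where 37.9% of all tested genes were lower. Their log2 fold changes had a median of -4.71 (-4.84 when the gene at few counts is set to its counted ratio). The other 6 stayed at or below 0.508 CPM in every library, among them the cytokine genes Il6, Il1b and Tnf. The matrix protease gene Mmp9 fell from 47.4 ± 0.96 to 0.193 ± 0.035 CPM, and Mmp3 from 30.2 ± 0.76 to 0.395 ± 0.146 CPM (SD, n = 3). A gene that passed the count filter through preadipocytes alone had to be lower in adipocytes, so the count over tested genes is no sign of a shared direction in the list.

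**Figure D5:**
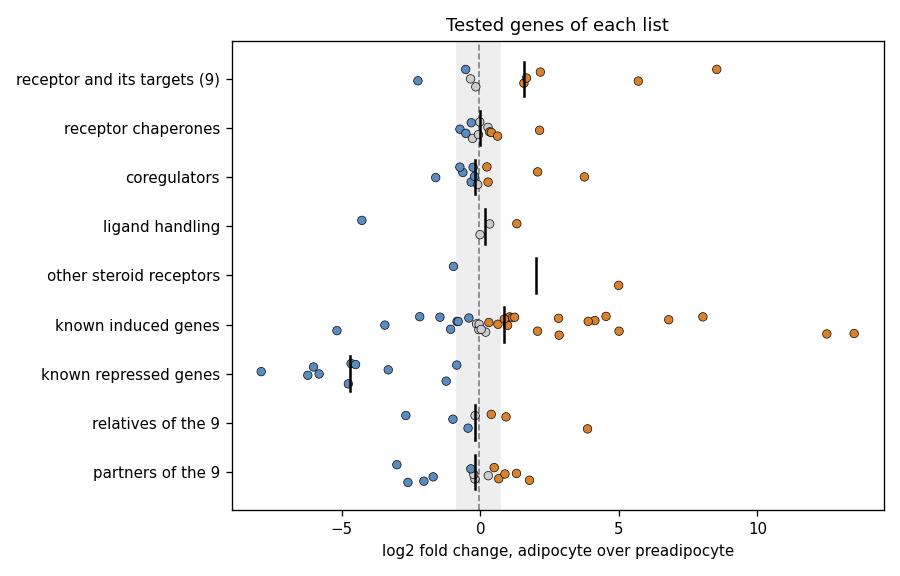
Log2 fold change, adipocyte over preadipocyte, of every tested gene in each list (orange higher, blue lower, grey not called); black bars are list medians, the dashed line is the median of all tested genes (-0.06) and the grey band their quartiles (-0.84 to 0.72). The receptor's chaperones and coregulators centre near 0, and all tested genes of the known repressed list lie below it.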

How the data were processed

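Per the file headers, the authors deposited 1 RSEM gene table per library, with expected counts (estimated reads per gene, not scaled between libraries), TPM (scaled within each library) and gene length. Bowtie, Bowtie2, RSEM and DESeq2 are named with GRCm38 and mm10, per the submitters' processing notes; strandedness, versions and the role of each tool were not given in the sources used here. RSEM divides reads that match several genes by a model, so counts of genes with near-identical copies are uncertain. Of 54752 gene identifiers, 54723 matched GENCODE M21.

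Expected counts were rounded, filtered with filterByExpr, scaled with TMM and tested with the quasi-likelihood F-test of edgeR 4.0.16 (R 4.3.3) on group alone, with Benjamini-Hochberg adjustment over all tested genes. Errors are the SD of 3 libraries, or the fit's standard error. The code was tested on simulated data. Alternatives were RLE, upper-quartile and total-count scaling, no filter, DESeq2 1.42.0, limma 3.58.1 on log2(TPM + 1), a replicate block and leaving out each library.

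Across genes, deviations from group means had correlations of 0.66, 0.30 and 0.26 for libraries numbered 1, 2 and 3, all above the limit of 0.1. The main fit still used group alone, and pairing by number entered the replicate block, which is given as an alternative. Preadipocyte 2 also correlated with adipocyte 3 at 0.45, above its own number, and preadipocyte 3 with adipocyte 2 at 0.16, so for these numbers the shared deviation was not particular to the number.

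The 9 genes, the lists and the naming rule were chosen with earlier results of these data known. The rule named the 9 genes, up to 2 rises and 2 falls per list (5 CPM or more in the higher group), all tested steroid receptors and hormone-handling genes, and the 3 genes most like Nr3c1; some genes under the rule are not reported here. Fkbp4, Nr3c2, Hsd11b2, Des and other genes outside the rule were named as list members. Total counts per library limit the precision of low genes, and floors and intervals cover counting error only.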

Additional observations from a re-analysis of the deposited data

How the results depend on the processing

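The 7 calls among the 9 genes kept their direction and side of the threshold under all 13 alternatives. Nr3c1 and Fkbp5 kept their direction, at -0.82 to -0.19 and -0.64 to -0.03 on the log2 scale, and each passed the threshold under 5 of the 13. Against TMM, the median gene moved by -0.13 (upper-quartile factors), -0.33 (total counts) and -0.48 (limma on log2(TPM + 1)). Relative to this shift Nr3c1 stayed at -0.35, -0.35 and -0.34 and Fkbp5 at -0.16 under each. Of all calls, 48.5% were upward with TMM, 34.3% by total counts and 28.2% by limma, where 3266 genes were higher against 5252. On the log2(TPM + 1) scale, which understates changes of low genes, Hsd11b1 rose by 7.07.

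Lower genes among the 9 numbered 4 with the replicate block, upper-quartile factors, total counts and limma. The block changed no other call among the 9 and moved no list's count by over 1.5 times. For the 2 TPM ratios, pairing by number gives the same mean difference by arithmetic, so this is no check. An exact test over sign changes of the 3 paired differences gave two-sided p = 0.25 for both ratios, the smallest possible with 3 pairs. Receptor chaperones had 2 higher and 6 lower with total counts, and 1 and 7 with limma. Coregulators had 2 higher with upper-quartile factors, total counts and limma, and 2 to 4 higher and 3 to 5 lower when single libraries were left out. Hormone-handling genes had 2 higher with RLE factors, 1 to 2 when single libraries were left out, and 2 lower with total counts, limma or no filter, which tested 10 of them. Other steroid receptors had 2 higher with no filter or DESeq2, which tested 4. Partners of the 9 had 3 higher with limma. Apart from the effect of testing more genes, the cause was not tested.

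H6pd, Star and Fkbp4 changed sign, and none of the 3 was called under the changed sign. H6pd was at 0.048 with RLE factors, 0.058 with no filter and 0.052 with DESeq2, and at -0.064 to 0.073 when single libraries were left out. Star was at -0.16 with limma. Fkbp4, called higher with TMM, was at -0.17 with limma and not called. Per1, not called with TMM, was called lower at -0.27 with upper-quartile factors, -0.46 with total counts, -0.62 with limma and -0.22 without adipocyte library 1. Low counts limit Hsd11b1 in preadipocytes, where leaving out 1 library moved its log2 fold change to between 8.25 and 8.90.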
